A study of Mus musculus with 4 samples.

Results

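The SLAM family receptors and their adaptor genes were described in RNA-seq of mouse regulatory T cells, a CD4+ subset that holds other lymphocytes in check. The 8 genes were taken by symbol through the gene IDs of the deposited count tables: the receptor genes Slamf1, Slamf6, Slamf7, Ly9, Cd48 and Cd84, and the adaptor genes Sh2d1a, which encodes SAP, and Sh2d2a, which encodes TSAd. All 8 were found among 50600 IDs. The study holds 1 group of 4 libraries, numbered as biological replicates 1 to 4, of primary cells from strain C57BL/6NJ. Age is labelled unknown and sex not collected, and all 4 libraries carry the same donor identifier. The sex-linked RNAs go against a single animal: Xist had 100.4 and 88.7 TPM in replicates 1 and 2 but 0.716 and 0.603 in replicates 3 and 4, and the Y-linked gene Ddx3y had 0.159 and 0.101 TPM in replicates 1 and 2 but 46.1 and 40.6 in replicates 3 and 4. The libraries therefore hold cells of at least 2 animals of different sex. The labels do not say which libraries share an animal or culture, so every spread is that between libraries and includes this split. A CD4+ T cell differentiation protocol is linked in the labels, and the words activated and 24h stand in the output names of the headers. No other cell type, unstimulated sample or treated arm is part of this series, so levels cannot be read as higher or lower than in another T cell.

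SLAM receptors are immunoglobulin superfamily proteins of blood cells. Most bind a second copy of themselves on a neighbouring cell, while CD48, held in the membrane by a lipid anchor, is bound by CD2 and CD244. The cytoplasmic tails of the other receptors named here carry tyrosine motifs. These recruit SAP or, for Slamf7, the related adaptor EAT-2. SAP is a small protein made of an SH2 domain that brings in the kinase FYN and competes with phosphatases. In mice SAP is needed for natural killer T (NKT) cell development and for lasting contact of follicular helper T (Tfh) cells with B cells, and its loss in humans causes X-linked lymphoproliferative disease. TSAd is a separate SH2 adaptor of T cells that binds the kinase LCK.

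The libraries held 38590127, 44357436, 48312918 and 93035969 fragments assigned to genes in replicates 1 to 4. Levels are given as TPM, a count divided by the length of the gene's exons and scaled to a common total. This allows genes to be set side by side, but their order depends on the exon lengths, and no other length was tried. All 10 T cell and regulatory T cell markers had a mean of at least 1 TPM. Cd4 had 540 ± 31.7 and Foxp3, the factor that defines the lineage, 109 ± 14.5 TPM (SD, n = 4). Ikzf2 was the lowest of the 10, at 4.32 ± 0.788 TPM. SLAM receptors are also borne by other blood cells, whose markers were low. The summed TPM of 5 markers ranged over the 4 libraries from 2.96 to 4.66 for B cells, 1.20 to 1.93 for macrophages, 0.793 to 1.28 for dendritic cells and 0.405 to 0.605 for platelets. The 5 NK cell markers summed to 97.7 to 106 TPM, of which Nkg7, a granule gene that T cells also express, made up 100.6 ± 3.64, while the NK receptor gene Ncr1 had 0 fragments in all 4 libraries. In these bulk libraries fewer cells with an RNA and less of that RNA per cell cannot be told apart.

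All 8 genes were detected in all 4 libraries, with 75 fragments or more in each, and their mean levels spanned 2.14 to 235 TPM. Of the 8, 6 had a mean of at least 10 TPM and 2 of at least 100. The median over the 8 was 26.7 TPM, beside 31.0 TPM over the 10383 protein-coding genes with a mean of at least 1 TPM. From high to low the order was Sh2d2a, Cd48, Ly9, Sh2d1a, Slamf1, Cd84, Slamf6 and Slamf7.

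Among the receptors, Cd48 was the highest by TPM. It is the receptor without a signalling tail (ENSMUSG00000015355.13, chromosome 1, 171682009 to 171705258, plus strand, mm10). Cd48 had 146, 194, 185 and 177 TPM in replicates 1 to 4, a mean of 176 ± 20.7 TPM (SD, n = 4). Replicate 1 was the low library and the other 3 lay close together. Its mean lay at percentile 89.3 of the expressed protein-coding genes. The exon length of Cd48 was 1189 bp, against 3307 bp for Ly9. In CPM (fragments scaled by library total, not by length) Cd48 had 54.6 to 69.1, below Ly9 at 85.7 to 94.0.

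Ly9, a homophilic receptor also named SLAMF3 or CD229 (ENSMUSG00000004707.14, chromosome 1, 171588624 to 171607410, minus strand), was the second. Ly9 had 82.8, 91.0, 97.8 and 91.4 TPM in replicates 1 to 4, a mean of 90.7 ± 6.18. It was the most abundant of the 5 receptors that carry a signalling tail. Cd48 and Ly9 together accounted for most receptor RNA: Cd48 made up 58.6 ± 1.39% and Ly9 30.4 ± 1.60% of the summed TPM of the 6 receptors, which was 299 ± 29.6 TPM.

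By TPM, Slamf1, Cd84 and Slamf6 formed a tier of near-equal level. Slamf1 (SLAM or CD150, the homophilic receptor that gave the family its name) had 9.32, 11.4, 10.7 and 10.8 TPM in replicates 1 to 4, a mean of 10.5 ± 0.865. Cd84 (SLAMF5, a homophilic receptor that also acts in T and B cell contact) had 8.18, 11.9, 11.5 and 9.90 TPM, a mean of 10.4 ± 1.70. Slamf6 (Ly108, for which the annotation lists 7 transcripts that these gene counts do not separate) had 8.74, 10.5, 10.3 and 9.81 TPM, a mean of 9.85 ± 0.800. The ranges of the 3 genes overlapped, and replicate 1 was the low library for each. They lay at percentiles 25.1, 24.8 and 23.9 of the expressed protein-coding genes and each made up between 3.30 and 3.53% of receptor TPM on average.

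Slamf7, also named CRACC, a receptor best known from NK and plasma cells, was the lowest (ENSMUSG00000038179.13, chromosome 1, 171632403 to 171653035, minus strand). Slamf7 had 1.36, 2.43, 2.38 and 2.37 TPM in replicates 1 to 4, a mean of 2.14 ± 0.521. Replicate 1 stood apart from 3 near-equal libraries, and the mean without it was 2.40 TPM. Its counts were small, 75, 148, 153 and 299 fragments, so counting error alone gave a coefficient of variation of 8.66%, against 24.4% measured. The summed NK marker level in replicate 1 was 99.1 TPM, inside the range of the other libraries, but Nkg7 made up 98.7 TPM of it. Eomes, Klrd1 and Klrb1c were each lowest in replicate 1, at 0.219, 0.129 and 0 TPM from 11, 2 and 0 fragments. Nkg7 was lowest in replicate 4, at 96.8 TPM, and Ncr1 had 0 fragments in every library. Replicate 1 held the fewest fragments and was the lowest library for 54.0% of the protein-coding genes tested. A link of these NK markers to Slamf7 was not tested.

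Both adaptors were more abundant than most of the receptors. Sh2d1a, the SAP gene (ENSMUSG00000005696.11, chromosome X, 42502453 to 42529330, plus strand), had 39.8, 45.9, 43.5 and 42.2 TPM in replicates 1 to 4, a mean of 42.9 ± 2.55. The libraries overlapped closely. Its RNA equalled 0.347 ± 0.0165 of the summed TPM of the 5 receptors with a signalling tail, a ratio between 0.328 and 0.361 in single libraries. Set against the split by Xist, Sh2d1a, an X-linked gene, had TPM values that overlapped between both sides. Scaled over protein-coding genes it had 45.2 and 48.1 TPM in replicates 1 and 2, above the 45.0 and 43.7 in replicates 3 and 4. Its ratio to the 5 receptors was likewise above, 0.361 in both replicates 1 and 2 and 0.328 and 0.340 in replicates 3 and 4, as was its ratio to Ly9, at 0.481 and 0.505 against 0.445 and 0.462. By CPM the sides overlapped again, as Sh2d1a had 68.7, 75.7, 69.6 and 68.8 CPM from replicate 1 to replicate 4. Whether the sides separated therefore depended on the scale. The summed TPM of the 5 receptors was lowest in replicate 1, at 110 against 124 to 133 elsewhere. Sh2d1a was also lowest there, at 39.8 TPM, and the part of each in the ratio was not tested. With 2 libraries on each side the differences between the sides were not tested.

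Sh2d2a, the TSAd gene (ENSMUSG00000028071.12, chromosome 3, 87846755 to 87855722, plus strand), was the highest of the 8. Sh2d2a had 236, 217, 244 and 243 TPM in replicates 1 to 4, a mean of 235 ± 12.5, at percentile 92.7 of the expressed protein-coding genes. It was the one gene of the 8 whose lowest library was replicate 2. Within libraries Sh2d2a was 5.50 ± 0.537 times Sh2d1a.

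**Figure D1:**
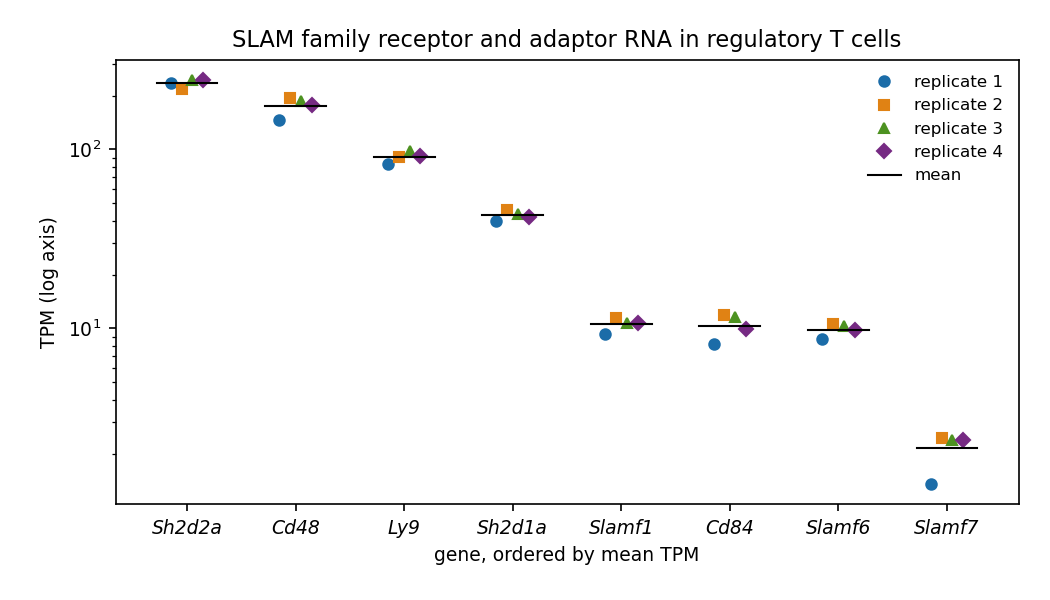
TPM of the 8 genes on a log axis, 1 symbol for each of the 4 libraries and a line at the mean. Sh2d2a and Cd48 lie above 100 TPM, Slamf1, Cd84 and Slamf6 share a level near 10 TPM, and replicate 1 is the lowest symbol for 7 of the 8 genes.

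The steps of the order were then described within libraries, as differences of log2(TPM + 1) between neighbours. The order came from the means of the same 4 libraries, so the signs are not an independent check of it. Of the 7 neighbouring pairs, 5 had the same sign in all 4 libraries. Sh2d2a exceeded Cd48 by 0.42 ± 0.22, Cd48 exceeded Ly9 by 0.94 ± 0.11, Ly9 exceeded Sh2d1a by 1.06 ± 0.08, Sh2d1a exceeded Slamf1 by 1.93 ± 0.04, and Slamf6 exceeded Slamf7 by 1.81 ± 0.16 (SD, n = 4). The steps within the middle tier were smaller than their spread: Slamf1 minus Cd84 was 0.03 ± 0.13, above 0 in 2 of 4 libraries, and Cd84 minus Slamf6 was 0.06 ± 0.12, above 0 in 3 of 4. By exact sign-flip permutation (two-sided), each of the 5 steps reached p = 0.125 (adjusted over the 7 pairs p = 0.175), the smallest that 4 libraries allow, and the middle steps had p = 0.625 and p = 0.375 (adjusted p = 0.625 and p = 0.4375). Without replicate 1, Slamf1 minus Cd84 was -0.017, so their order changed with 1 library. The exon lengths are the same in every library, so these tests do not cover an error in them. The tests also treat the libraries as independent, although the labels do not say which share an animal.

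The receptor genes sit side by side on chromosome 1, and their levels differed between neighbours. The stretch from Cd244a to Slamf6 (mm10, chromosome 1, 171559193 to 171953170) holds 8 protein-coding genes, of which 7 are SLAM receptors and the other one, Gm10521, had a mean under 1 TPM. In map order the mean levels were 0.280 TPM for Cd244a, 90.7 for Ly9, 2.14 for Slamf7, 176 for Cd48, 10.5 for Slamf1, 10.4 for Cd84 and 9.85 for Slamf6. Slamf7, the lowest of the 6 receptor genes, therefore lies between the 2 highest. Ly9 lies within the span of Cd244a on the opposite strand, and no exon base of Ly9 overlaps an exon of another gene. No exon base of any of the 8 genes is shared with another gene on the same strand. On the opposite strand Sh2d1a overlaps exons of Tenm1 over 1465 bp and Slamf7 overlaps the antisense gene Gm37787 over 423 bp, and fragments were counted by strand.

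**Figure D2:**
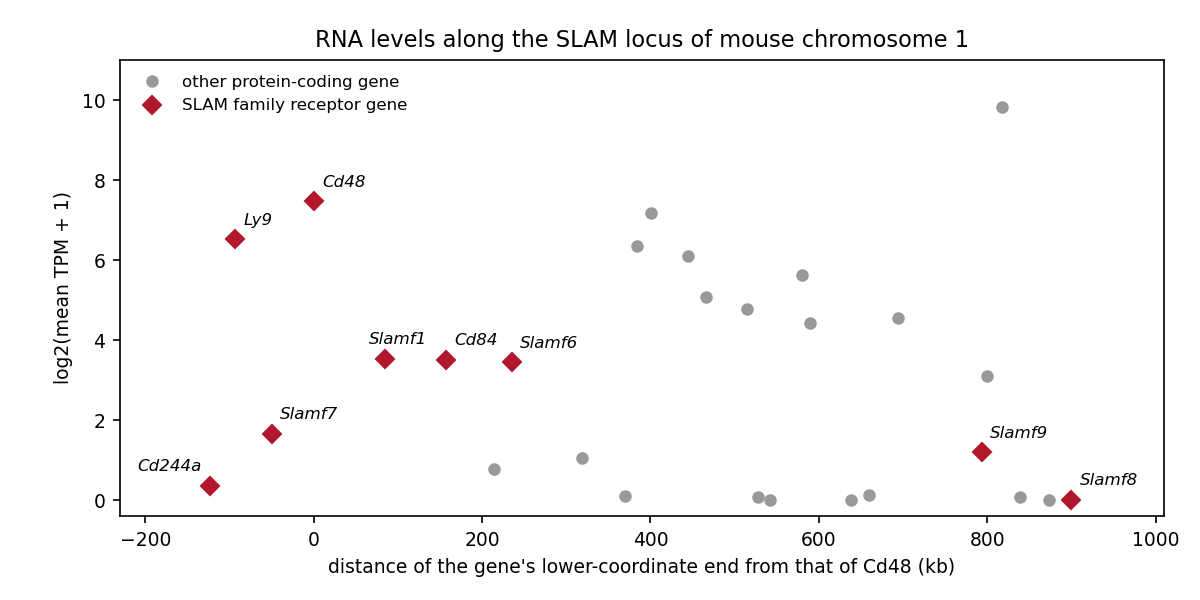
Mean level of each protein-coding gene, as log2(mean TPM + 1) over 4 libraries, against its distance in kb from Cd48, for the stretch of chromosome 1 that holds all SLAM receptor genes. Red diamonds are SLAM receptor genes and grey circles the other protein-coding genes; Ly9 and Cd48 lie highest among the receptors, with the low Slamf7 between them.

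RefSeq promoter windows, 250 bases before to 50 after the start site on GRCm38.p6, were at hand for 5 of the 8 genes. Those of the highest receptor gene, of 1 gene of the middle tier and of the lowest follow, 5′ to 3′ on the gene's strand, with matches to 4 short motifs in capitals. The windows lie at chr1:171681742-171682041 (plus strand) for Cd48, chr1:171839447-171839746 (plus) for Cd84 and chr1:171648950-171649249 (minus) for Slamf7.
Cd48: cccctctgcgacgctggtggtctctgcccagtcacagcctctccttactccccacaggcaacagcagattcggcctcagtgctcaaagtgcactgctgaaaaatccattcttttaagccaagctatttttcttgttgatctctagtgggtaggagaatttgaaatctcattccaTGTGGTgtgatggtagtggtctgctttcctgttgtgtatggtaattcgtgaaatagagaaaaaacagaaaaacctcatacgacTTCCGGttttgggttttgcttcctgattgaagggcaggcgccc
Cd84: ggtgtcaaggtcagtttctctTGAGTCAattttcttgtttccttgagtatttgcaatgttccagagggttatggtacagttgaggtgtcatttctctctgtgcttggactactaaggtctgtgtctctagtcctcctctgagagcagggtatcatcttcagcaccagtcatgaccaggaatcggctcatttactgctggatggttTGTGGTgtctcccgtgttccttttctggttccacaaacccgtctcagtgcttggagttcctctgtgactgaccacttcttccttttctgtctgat
Slamf7: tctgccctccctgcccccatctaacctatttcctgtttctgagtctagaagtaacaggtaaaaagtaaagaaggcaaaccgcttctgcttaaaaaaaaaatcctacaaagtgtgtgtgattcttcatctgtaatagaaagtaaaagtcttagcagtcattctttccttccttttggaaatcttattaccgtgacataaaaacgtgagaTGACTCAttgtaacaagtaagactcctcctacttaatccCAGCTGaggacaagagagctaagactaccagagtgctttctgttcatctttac
The motifs were chosen after these sequences were seen and were searched on both strands: CCGGAA, the core of ETS factor sites, TGTGGT of RUNX factors, TGACTCA of AP-1 and CAGCTG of E proteins. No matches overlapped. The Cd48 window held 1 match to CCGGAA, starting 7 bases after the start site on the opposite strand, and 1 to TGTGGT. Cd84 held 1 match to TGTGGT and 1 to TGACTCA, and Slamf7 held 1 to TGACTCA and 1 to CAGCTG. The other 2 windows held 1 match to CAGCTG in Slamf1 and none in Slamf6. Of 32817 promoter windows of that length, 14.9% held CCGGAA, 16.8% TGTGGT, 5.20% TGACTCA and 16.3% CAGCTG. The Cd48 window had 7 CpG dinucleotides and the others between 1 and 4, beside a median of 7 over all windows. The RefSeq start of Slamf7 lies 4036 bp inside the gene's outer end in the count tables, and which start is used in these cells was not tested.

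The spread between libraries differed from gene to gene. The coefficient of variation of TPM was 5.34% for Sh2d2a, 5.95% for Sh2d1a, 6.81% for Ly9, 8.12% for Slamf6 and 8.22% for Slamf1. It was 11.8% for Cd48, 16.4% for Cd84 and 24.4% for Slamf7. The median over the expressed protein-coding genes was 8.10%, which 5 of the 8 exceeded, Slamf6 and Slamf1 only just. With TPM scaled over protein-coding genes alone, it was 3.50% for Ly9, 4.09% for Sh2d1a, 4.80% for Slamf6 and 4.94% for Slamf1. On that scale Sh2d2a had 6.73%, Cd48 8.36%, Cd84 13.4% and Slamf7 21.2%. The place of Sh2d2a in the order therefore depended on the scale. Whether a gene's libraries differed more than those of similarly abundant genes was tested on edgeR's quasi-likelihood dispersion over 12396 genes, and all 8 passed the filter on low counts. None of the 8 was called (Benjamini-Hochberg adjusted p under 0.05), and 0 of 8 had an unadjusted p under 0.05. The background was 0.468% of genes by the adjusted and 5.33% by the unadjusted p. The 58 genes behind the 0.468% depend on the prior degrees of freedom: with edgeR's per-gene values 0 genes were called and 581 had an unadjusted p under 0.05, none of them among the 8. Cd84 came nearest, with a dispersion 2.14 times its prior (edgeR adjusted p = 0.981), followed by Cd48 at 1.69 times and Sh2d2a at 1.58 times (edgeR adjusted p = 0.985 for both). Slamf7, whose spread in TPM was widest, had 1.28 times its prior (edgeR adjusted p = 0.991). Its moderated biological coefficient of variation of 20.2% lay beside 20.1% for genes of its abundance. Moderation draws each gene's value toward that of genes of its abundance, so this closeness is in part built in. The other 4 lay between 0.233 and 0.383 times. DESeq2 marked 0 of the 8 as a dispersion outlier, beside 0.557% of all genes. At a background of 0.468%, 0 of 8 is not a result about these genes. The fit has no term for the split by Xist, so its dispersions include that split. On chromosome X lie 6 of the 58 genes called, Xist among them, and 415 of the 12396 tested. Of Y-linked genes 1 was tested, and it was not called. The filter on low counts asked for enough fragments in every library. It therefore left out Ddx3y, which had 10 and 7 fragments in replicates 1 and 2 against 3361 and 5822 in replicates 3 and 4. The count of Y-linked genes called thus does not show how such genes varied with the split. By the same edgeR test 0 of the 10 T cell and regulatory T cell markers were called. Of these 10, Foxp3 and Ikzf2 had an unadjusted p under 0.05.

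**Figure D3:**
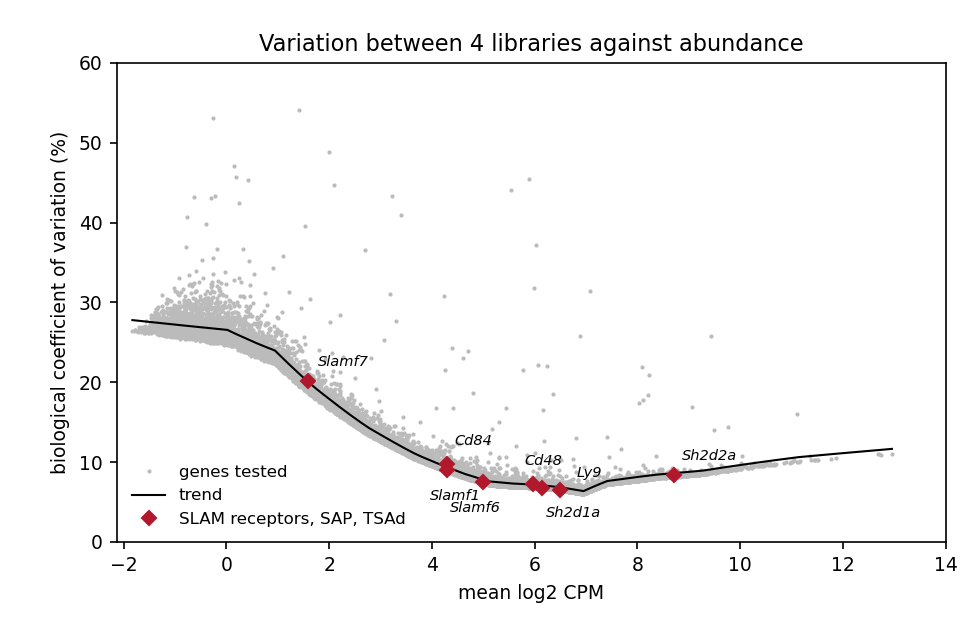
Moderated biological coefficient of variation in percent against mean log2 CPM for the genes tested, with edgeR's abundance trend as a line and the 8 genes as red diamonds. All 8 lie close to the trend, but moderation draws each gene's value toward it, so this closeness is in part built in. The 27 genes above 60% are outside the axis.

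Replicate 1 was the low library for most of the family. It was the lowest for 7 of the 8 genes by TPM, beside 54.0% of the 11054 protein-coding genes tested. In that library protein-coding genes held 88.2% of TPM, against 95.6 to 96.6% in the others, and features under 200 bp held 6.24% against 1.18 to 2.02%. When TPM was scaled over protein-coding genes alone, replicate 1 was the lowest for 6 of the 8 genes, beside 25.2% of genes. On that scale its log2 deviation from the gene's mean was -0.34 for Slamf7, -0.21 for Cd84 and -0.16 for Cd48, within -0.07 to -0.01 for Slamf1, Slamf6, Ly9 and Sh2d1a, and 0.10 for Sh2d2a. The median was -0.07 over the 8 genes and 0.01 over the protein-coding genes tested. The part of library composition in these differences was not tested.

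**Figure D4:**
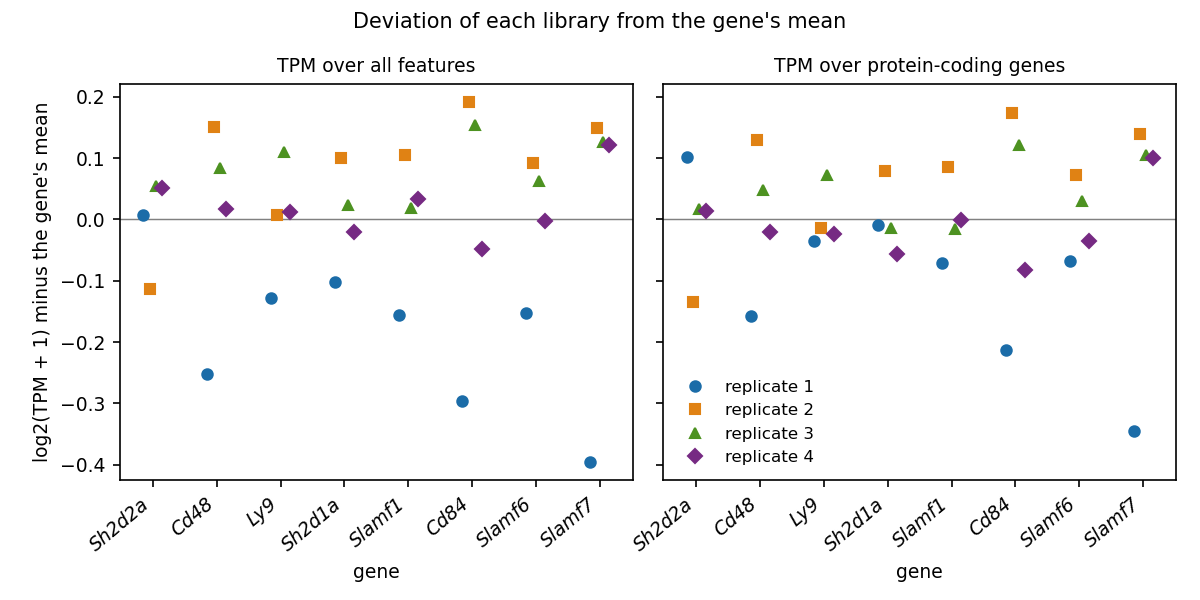
Deviation of log2(TPM + 1) in each library from the gene's mean over 4 libraries, with TPM over all features on the left and over protein-coding genes on the right. Replicate 1 lies below 0 for 7 of the 8 genes on both scales, most for Slamf7, and above 0 for Sh2d2a.

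The genes with the most similar pattern over the 4 libraries were named for 2 members by the root mean square distance of centred log2(TPM + 1). For Sh2d2a, the highest member, these were the decapping gene Edc4 (distance 0.0016), the Golgi gene Golga2 (0.00522) and the metal-response factor gene Mtf1 (0.00544), and 81 of the protein-coding genes tested lay within 0.02. For Slamf7, the gene with the widest range, they were Caap1 (0.0243), Sh3bp4 (0.0279) and Mtrf1 (0.0295), and 0 genes lay within 0.02. The distances rest on TPM over all features, so they include the lower protein-coding share of replicate 1. Counting error alone gave a coefficient of variation of 8.66% for Slamf7 and 0.693% for Sh2d2a, so the numbers of genes within 0.02 are not comparable. Shared regulation was not tested.

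The other SLAM receptor genes had few or no fragments. Slamf9 had 5, 35, 24 and 56 fragments in replicates 1 to 4, a mean of 1.29 ± 0.714 TPM. Cd244a, whose protein binds CD48, had 4, 36, 30 and 8 fragments, or 0.0678, 0.556, 0.438 and 0.0595 TPM. Replicates 2 and 3 held most of its fragments, although replicate 4 was the deepest library. No fragment of Slamf8, known from myeloid cells, was counted in any of the 4 libraries, a 0 that allows up to 0.0322 to 0.0777 CPM (fragments scaled by library total) depending on the library. All 3 fell below the filter on low counts and were not tested.

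Partners of CD48 and relatives of SAP were measured next. Cd2, the other CD48 receptor, had 386 ± 32.0 TPM and was 2.21 ± 0.159 times Cd48. The SAP-related adaptors of NK cells were not detected or nearly so: Sh2d1b2, which encodes ERT, had 0 fragments, and Sh2d1b1, which encodes EAT-2, had 1 fragment in replicate 4. Of the 14 genes that act with SLAM receptors and SAP, all had a mean of at least 10 TPM and 6 of at least 100. The highest was the phosphatase gene Ptpn6 at 702 ± 18.9 TPM and the lowest the adaptor gene Nck1 at 16.7 ± 1.89. Fyn, the kinase that SAP recruits, had 156, 166, 176 and 174 TPM, a mean of 168 ± 9.01, and the SAP partner gene Prkcq, a protein kinase C, 38.3 ± 1.98.

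All 8 measured partners of TSAd had a mean of at least 1 TPM and 5 of at least 100. Rack1, a ribosome-bound scaffold, was highest at 1474 ± 79.5 TPM and the kinase gene Txk lowest at 5.65 ± 0.782, with Lck at 823 ± 64.5. Of 8 other SH2 adaptor genes of lymphocytes, 7 had a mean of at least 1 TPM, led by Grap at 349 ± 16.1, and Clnk had 5 fragments, all in replicate 1. Hsh2d, which encodes ALX, an adaptor with an SH2 domain related to that of TSAd, had 3.94, 6.03, 5.90 and 3.66 TPM.

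Levels differed widely among genes linked to the programs of NKT and Tfh cells, which need SAP. Whether any of these genes depends on SAP in the cells measured here was not tested. Of 7, 4 had a mean of at least 1 TPM and 2 of at least 10. The inducible costimulator gene Icos was highest at 59.3 ± 7.14 TPM, followed by the chemokine receptor gene Cxcr5 at 15.0 ± 1.21, the Tfh factor gene Bcl6 at 4.02 ± 0.499 and Cd1d1, which presents lipids to NKT cells, at 1.98 ± 0.487. The NKT factor gene Zbtb16 had 0, 6, 0 and 6 fragments, the Tfh cytokine gene Il21 had 0, 3, 0 and 8, and Il4 had 1 fragment in replicate 1. Of the genes of these pathway lists that were tested, 14 of SAP signalling, 8 of TSAd partners, 7 of SH2 adaptors, 4 of the SAP-dependent programs and Cd2, 0 were called by the adjusted and 0 by the unadjusted p, beside 0.468% and 5.33% of all genes, so the count is not a result about these lists.

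**Figure D5:**
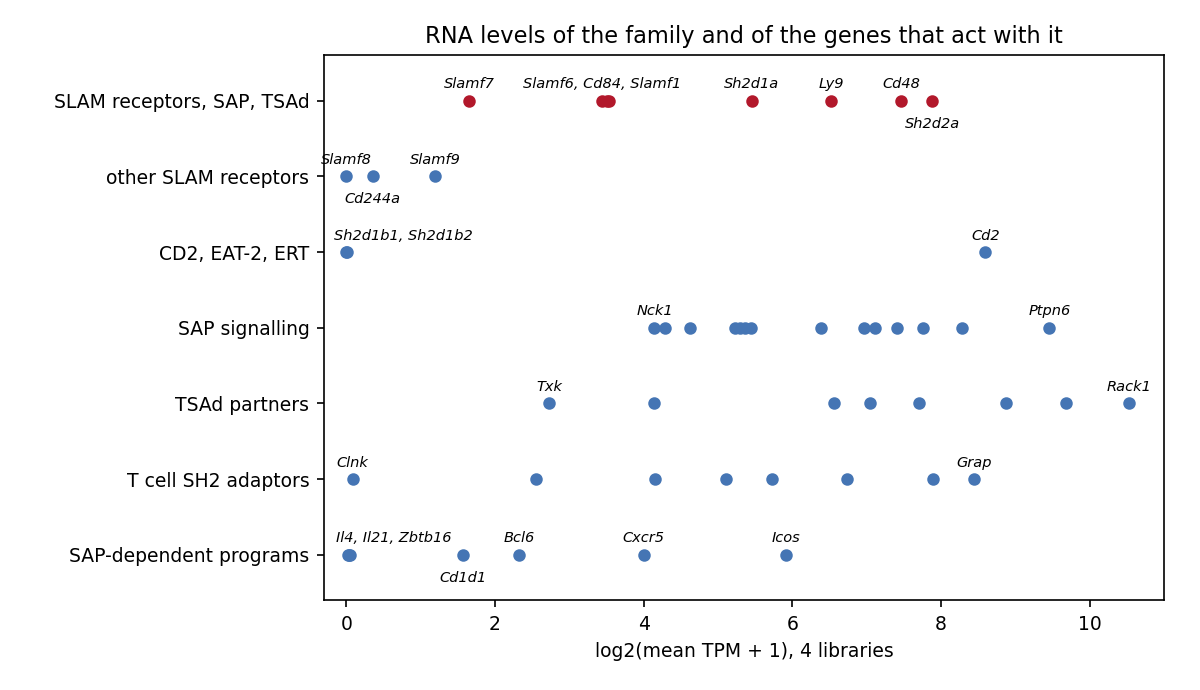
Mean level as log2(mean TPM + 1) over 4 libraries for the 8 genes (red) and for 6 lists of related genes (blue), 1 point for each gene, with the ends of each list named. Slamf8, Cd244a and the EAT-2 and ERT genes lie near 0, while every SAP signalling gene lies above 4.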

How the data were processed

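RNA-seq of 4 libraries was used. The authors counted fragments per gene with featureCounts 1.4.6-p4, per the file headers: pairs with both ends mapped, exons grouped by gene, strand setting 2, GENCODE mouse release 13. The assembly is mm10, per the labels. The deposited counts are raw, with no scaling. The same tables give the exon union length, per the file headers. No aligner is named in the labels, though output names in the headers hold the tag star2. The assay is labelled total RNA-seq, while the linked library protocol is named for polyA+ RNA.

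Symbols came from GENCODE release 21 by ID without version (50376 of 50600 matched). TPM was computed from counts and lengths. Variation between libraries was tested in edgeR 4.0.16 (R 4.3.3). Low counts were filtered by filterByExpr, libraries scaled by TMM, and a quasi-likelihood model with an intercept alone and a robust prior fitted, so differences between the sexes seen in these libraries enter the dispersion. Each gene's dispersion over its prior was referred to an F distribution (upper tail), with Benjamini-Hochberg adjustment over all genes. The largest prior degrees of freedom were used for every gene, a choice made after seeing the data, because edgeR's per-gene values gave 0 calls in the real counts and none when the script was tested on simulated counts with known changes. DESeq2 1.42.0 gave dispersion outliers as an alternative. A count of 0 allows up to 3 fragments, and this floor covers counting error alone. Duplicate libraries were not found (chi-square over degrees of freedom of 12.2 to 137). Genes and lists were chosen with earlier results of these data known. Named were all 8 genes and, of each pathway list, the highest and lowest by mean TPM. Genes of the SLAM locus were named by position, and for 2 members the 3 genes most like them. Foxp3, Cd4, Ikzf2, Eomes, Klrd1, Klrb1c, Fyn, Prkcq, Lck, Hsh2d, Xist, Ddx3y and the genes of the SAP-dependent programs were named beyond this, after their values were seen.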

Additional observations from a re-analysis of the deposited data

Results flagged for a closer look

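Slamf7 had 1.36 TPM in replicate 1, far from the other 3 libraries, which lay between 2.37 and 2.43 TPM. Chance flags about 1 in 20 such sets of values, and 9 sets were looked at, the 8 genes and their sum. The library rests on 75 fragments of Slamf7, and edgeR did not call the gene as variable (adjusted p = 0.991).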

How the results depend on the processing

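The count of genes that varied between libraries was 58 by edgeR's quasi-likelihood test, 110 with no filter on low counts, 36 with a prior that is not robust, 69 as DESeq2 dispersion outliers, 0 with per-gene prior degrees of freedom (chosen after seeing the data; 581 at an unadjusted p under 0.05), and 37 to 69 when replicates were left out in turn, 37 without replicate 1; the cause of these differences was not tested. None of the 8 genes was called under any edgeR alternative, where their adjusted p ranged from 0.961 to 0.999. Their summed level was 577 TPM, 612 TPM when scaled over protein-coding genes, which removes other features from the total, and 567 to 592 TPM when replicates were left out. The difference of log2(TPM + 1) between Slamf1 and Cd84 changed sign, from -0.017 without replicate 1 to 0.075 without replicate 3. The other 41 of 42 alternative values of the steps between neighbours kept their sign. None of these alternatives changed the exon lengths. No paired analysis was possible because there is 1 group. Depth limits Slamf7, Slamf9 and Cd244a, which had few fragments.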
